A study of Mus musculus with 3 samples.

Results

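The genes described here encode channels and G proteins through which endothelial cells sense blood flow and turn it into electrical and chemical signals. They are the 10 genes Piezo1, Trpv4, Tmem63a, Tmem63b, Pkd1, Pkd2, Kcnj2, Kcnn3, Gnaq and Gna11, chosen by gene symbol from 17583 listed genes, and each symbol matched 1 row. The RNA came from a pull-down aimed at ribosomes of cardiac endothelial cells in 3 EC-RiboTag mice (Cdh5-CreERT2;Rpl22tm1.1Psam). In these mice tamoxifen-induced Cre, driven by the endothelial Cdh5 promoter, adds a hemagglutinin tag to the ribosomal protein Rpl22. Tagged ribosomes were pulled down from heart homogenates and the RNA on them was read from 1 end over 72 bases. All 3 mice share genotype and treatment. According to the labels the hearts were taken on day 7 after coronary artery ligation. The paper's own account of its RiboTag sequencing mentions no ligation, so the state of these hearts rests on the labels. For qRT-PCR, the study also took RNA of EC-RiboTag mice from the remote zone and from border and infarct zones on day 7 after infarction. Each title here includes Rz, an abbreviation that no label explains and that may mean remote zone, so these values may be of that zone and not of whole hearts. The labels give no age or sex. The Y-linked gene Eif2s3y had a mean of 157.3 normalized counts and a coefficient of variation of 172.1% between the mice. The mice may thus differ in sex, which no value below accounts for. With a single group, every value below is a level within the immunoprecipitate, and fewer cells of a type cannot be told apart from less RNA per cell. No library of the whole homogenate is among the 3 samples, so no level can be assigned to endothelial cells alone.

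Shear stress and stretch open force-gated cation channels in the endothelial membrane, and the calcium that enters activates nitric oxide synthase and calcium-dependent potassium channels. PIEZO1 is the best known of these channels in endothelium. Gq and G11 carry signals from receptors to phospholipase C beta, which releases calcium from stores, and have been placed downstream of PIEZO1 and ATP release in flow sensing. Potassium channels such as Kir2.1 and SK3 then spread hyperpolarization along the vessel.

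The deposited values are read counts after scaling by library size factors and rounding to whole numbers. They summed to between 7149102 and 7268785 per mouse, and the pattern of whole numbers that rounding skips or doubles implies about 6753000 to 7564000 counted reads. All 12 endothelial markers were present, with a median of 711 normalized counts per kilobase, and so were all 10 cardiomyocyte markers, with a median of 565, so the immunoprecipitates were not free of heart muscle RNA. Because duplicate reads were removed, a level of 1000 per kilobase, or about 1 read per base, is near the limit, and the medians of these lists lie too close to it to be compared. The same limit holds for single genes at such levels, so the size of differences from them below is uncertain. The summed count of 8 mural markers was 1610, 2002 and 2274 in mice 1, 2 and 3, that of 7 fibroblast markers 2703, 3229 and 3515, and that of 4 lymphatic markers 2583, 3252 and 3735. These sums were lowest in mouse 1 and highest in mouse 3, but single genes differed, and 5 of the 8 mural markers were lowest in mouse 1. The sum of 2 endocardial markers was 2894, 2300 and 3886, lowest in mouse 2.

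Sequences of these genes show what the counts can separate and what the potassium channels share. Gnaq and Gna11 encode proteins of equal length, and a read could only be assigned to 1 of them where their transcripts differ. Their coding sequences of 1077 bases each were 80.5% identical, with 210 differing bases and a longest identical run of 38 bases. No window of read length was identical between them, and the most alike window still held 5 differences. It lies in exon 7 of both genes, at chr19:16360618-16360689 on the plus strand for Gnaq and at chr10:81366698-81366769 on the minus strand for Gna11 (GRCm39). Capitals mark the differing bases, read 5′ to 3′ on the coding strand.
Gnaq: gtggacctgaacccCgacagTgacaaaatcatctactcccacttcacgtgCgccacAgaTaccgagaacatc
Gna11: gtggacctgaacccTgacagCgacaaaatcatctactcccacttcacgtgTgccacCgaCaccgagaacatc
The most different window held 27 differing bases and lies in exon 4 of both genes, at chr19:16309442-16309513 and chr10:81368286-81368357.
Gnaq: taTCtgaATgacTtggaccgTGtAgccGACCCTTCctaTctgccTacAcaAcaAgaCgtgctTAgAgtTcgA
Gna11: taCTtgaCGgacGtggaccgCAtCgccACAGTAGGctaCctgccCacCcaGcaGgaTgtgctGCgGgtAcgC
No stretch of 72 bases from the canonical transcripts of the 10 genes occurred at another place in the genome, and no base of these transcripts overlapped an exon of another gene on the same strand. The counts of Gnaq and Gna11 are therefore separate counts and not shared reads.

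Potassium channels carry a short conserved stretch at the narrowest part of the pore, the selectivity filter. The in-frame codon pattern GGNTANGGN, searched on the coding strand only, was found once in Kcnj2 and once in Kcnn3. In Kcnj2 it lies at chr11:110963027-110963059 (GRCm39, plus strand, exon 2), shown here with the pattern in capitals and its flanks in lower case.
Kcnj2: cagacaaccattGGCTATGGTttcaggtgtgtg
Of 16 listed potassium channels, 13 held the pattern in frame, against 955 of 14179 coding sequences of all listed genes (6.74%). Among the other 8 members, Piezo1 alone held it, so the pattern is not particular to potassium channels.

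Ribosome-bound RNA of all 10 genes was recovered from every mouse, with at least 102 normalized counts for each gene in each library. By mean normalized count, a scale on which longer transcripts weigh more, 9 of the 10 exceeded the median of all listed genes, which was 237, and 6 were among the highest 25%. The values of Tmem63a, Trpv4, Pkd2, Gnaq and Gna11 were close together in the 3 mice, whereas those of Kcnn3, Pkd1 and Piezo1 were lowest in mouse 1 and highest in mouse 3.

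**Figure D1:**
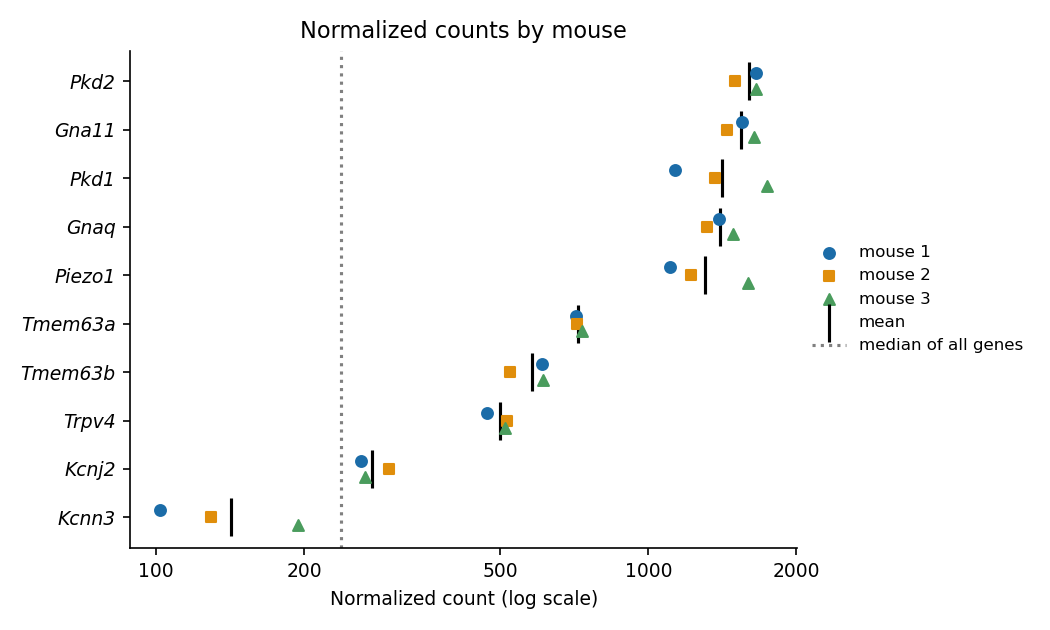
Normalized counts of the 10 genes in each mouse (log scale), ordered by mean. Symbols are single mice, the vertical bar is the mean of 3 mice and the dotted line is the median of all listed genes (237). The means run from 141.7 for Kcnn3 to 1603 for Pkd2, and mouse 3 is highest by a wide margin for Pkd1, Piezo1 and Kcnn3.

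A longer transcript yields more reads, so levels of different genes were compared per kilobase of the Ensembl canonical transcript. On this scale the order changed, and Gna11, which encodes the alpha subunit of G11, was highest with 447.8 ± 28 (SD, n = 3). Only 4.69% of all genes with a known length reached its level. Pkd2 followed with 262.5 ± 14.6, then Gnaq with 203.5 ± 12.7. Between 141.9 and 173.3 per kilobase stood the 4 cation channels Tmem63b, Piezo1, Trpv4 and Tmem63a. Within this group, Tmem63b and Piezo1, and Piezo1 and Trpv4, differed by less than the larger SD. Pkd1 had 99.9 ± 21.6, and Kcnj2 and Kcnn3, at 50.2 ± 3.6 and 48.9 ± 16.3, lay below the median of all genes, 73.0 per kilobase, and did not differ beyond their spread. In all, 8 of the 10 genes exceeded that median. With coding length in place of transcript length, 4 of them did.

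**Figure D2:**
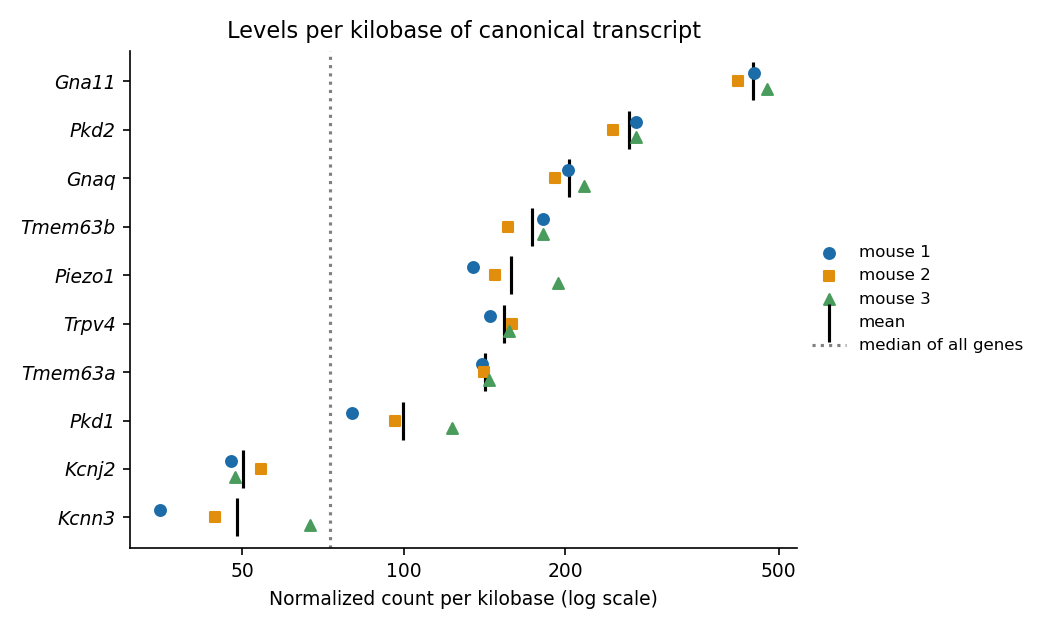
Normalized counts per kilobase of canonical transcript (log scale) for the 10 genes, with single mice as symbols and the mean as a vertical bar. The dotted line is the median of all genes with a length (73.0). Gna11 stands apart at 447.8, the 4 cation channels lie close together, and Kcnj2 and Kcnn3 lie below the line.

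Piezo1 (ENSMUSG00000014444, chr8:123208437-123278068, minus strand, 51 exons) encodes a large trimeric channel that opens under membrane tension. Its normalized counts were 1106, 1219 and 1594 in mice 1, 2 and 3, a mean of 1306 ± 255 (SD, n = 3). Mouse 3 was 1.44-fold above mouse 1, a spread of 19.6% where counting alone would give 2.76%. Piezo2, its relative known from touch neurons, had 61, 132 and 96. Per kilobase, Piezo1 had 158.9 and Piezo2 had 9.16 ± 3.38. In every mouse Piezo1 was the higher of these channels.

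Tmem63a and Tmem63b encode channels related to the osmosensitive OSCA channels of plants and open at high membrane tension. Tmem63a (ENSMUSG00000026519, chr1:180769909-180802677, plus strand) had 712, 717 and 734 normalized counts. Its coefficient of variation of 1.60% was the lowest of the 10 genes and below the 3.72% that counting would give on average. Tmem63b (ENSMUSG00000036026, chr17:45971097-45997831, minus strand) had 609, 524 and 610, with mouse 2 the lowest. Per kilobase the log2 ratio of Tmem63a to Tmem63b was -0.29 ± 0.12 (SD, n = 3 mice), in the same direction in all 3 (exact sign-flip permutation test, two-sided p = 0.25, adjusted over 5 pairs 0.417). This direction rests on the transcript chosen, because Tmem63b has a canonical transcript of 3352 bases but 12436 bases of annotated exons. Without division by length the log2 ratio was 0.31, with coding length 0.36, and with joined exons 1.16. The third relative, Tmem63c, was not listed.

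Trpv4 (ENSMUSG00000014158, chr5:114760213-114796482, minus strand) encodes a calcium-permeable channel opened by swelling, lipid mediators and warmth. It had 471, 517 and 512 normalized counts, a mean of 500 ± 25.2 (SD, n = 3), and its spread of 5.05% was close to the 4.47% of counting. Among 13 TRP channels, 8 were listed and 7 had at least 10 normalized counts in every mouse. Trpv4 was the highest of them with 153.8 ± 7.8 per kilobase, followed by Trpm7, a channel fused to a kinase, with 124.3 ± 22.1 and Trpm4, which calcium opens, with 79.4 ± 6.6. Trpv2 had 35.4 ± 10.1, and Trpc1, Trpv3 and Trpm2 had at most 21.6. The lead of Trpv4 over Trpm7 rests on the length chosen. With joined exons Trpv4 had 84.6 per kilobase and Trpm7 77.8. Without division by length Trpm7 was higher in each mouse, with 785, 803 and 1066. Trpv1, Trpc4, Trpc5, Trpc6 and Trpa1 were not listed, and the table holds no gene whose values were all below 4. Piezo1 and Trpv4 did not differ per kilobase beyond the spread between mice, with a log2 ratio of 0.03 ± 0.23 (SD over 3 mice; exact sign-flip permutation test, two-sided p = 1.0). Piezo1 was lower than Trpv4 in mice 1 and 2 and higher in mouse 3, and without mouse 3 the log2 ratio was -0.10. This nearness rests on the length chosen. With joined exons the log2 ratio was 0.62 and without division by length 1.37, with Piezo1 higher in each mouse (two-sided p = 0.25 in the same exact test), and with coding length it was -0.18.

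Polycystin-1 and polycystin-2, encoded by Pkd1 and Pkd2, assemble into a receptor-channel complex best known from the primary cilium and from polycystic kidney disease. Pkd1 (ENSMUSG00000032855, chr17:24768808-24815482, plus strand) had 1135, 1368 and 1741 normalized counts, a mean of 1415 ± 306 (SD, n = 3). Pkd2 (ENSMUSG00000034462, chr5:104607316-104653685, plus strand) had 1656, 1500 and 1653, a mean of 1603 ± 89.2. Pkd1 was lowest in mouse 1 and highest in mouse 3, whereas Pkd2 was lowest in mouse 2 and almost equal in mice 1 and 3. Per kilobase Pkd2 was 2.67-fold above Pkd1, in each of the 3 mice (the log2 ratio of Pkd1 to Pkd2 was -1.42 ± 0.32, SD over 3 mice; exact sign-flip permutation test, two-sided p = 0.25, adjusted 0.417). The size of this difference rests on the length as well. The log2 ratio was -2.35 with coding length, but -0.26 with joined exons and -0.20 without division by length (two-sided p = 0.5 for both in the same exact test), where Pkd1 was the higher gene in mouse 3. With 3 mice 0.25 is the smallest two-sided p this test allows, so none of the 5 pairs could reach 0.05.

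The remaining listed polycystin genes were low, and only Pkd1l3 was near the floor. Pkd2l2 had 58, 46 and 31 normalized counts, Pkdrej had 65, 83 and 25, and Pkd1l3 had 4, 4 and 2. Pkd1l1, Pkd1l2, Pkd2l1 and Pkhd1, the gene of the cilium protein fibrocystin, were not listed. Summed per kilobase over the 5 listed genes, Pkd2 took 68.6% ± 3.0 and Pkd1 25.98% ± 4.52 (SD, n = 3). Genes of ciliary transport were present, since all 6 on the cilium list had at least 10 normalized counts in every mouse. Highest among them were Arl13b, a ciliary GTPase, with 200.1 ± 1.6 per kilobase, the kinesin gene Kif3b with 118.6 ± 4.0 and Ift172 with 81.0 ± 9.7.

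Kcnj2 (ENSMUSG00000041695, chr11:110956990-110967647, plus strand, 2 exons) encodes Kir2.1, an inward rectifier that responds to shear stress in endothelium and also sets the resting potential of heart muscle. Its normalized counts were 261, 297 and 266, a mean of 274.7 ± 19.5 (SD, n = 3), and its spread of 7.10% exceeded counting, 6.04%, only slightly. Kcnj2 was not the highest inward rectifier. Kcnj11, the pore of the ATP-sensitive potassium channel of heart muscle, had 102.9 ± 17.7 per kilobase against 50.2 for Kcnj2. Its counts of 368, 341 and 261 were lowest in mouse 3. Kcnj8, the corresponding channel of mural cells, had 37.5 ± 8.8 per kilobase. Kcnj5 and Kcnj3, the subunits of the atrial channel opened by acetylcholine, had 20.5 and 19.5, and Kcnj12 and Kcnj14 had 9.34 and 8.70. The list was thus led by a channel of heart muscle, and cardiomyocyte markers were present in every library, with a summed count of 20679, 21339 and 24237. The rise of this sum in mouse 3 was carried by Ttn, with 7379, 7743 and 10190, and Ryr2, with 3280, 3667 and 4486, whereas 6 of the 10 markers were lowest in mouse 3. Their part in the level of Kcnj2 was not tested. Kcnj4, Kcnj10 and Kcnj16 were not listed.

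Kcnn3 (ENSMUSG00000000794, chr3:89427471-89582439, plus strand) encodes SK3, a calcium-activated channel that hyperpolarizes endothelium and is also found in heart muscle. It had 102, 129 and 194 normalized counts, a mean of 141.7 ± 47.3 (SD, n = 3), with mouse 3 1.90-fold above mouse 1. That spread of 33.4% was the largest of the 10 genes and well above the 8.38% of counting. Kcnn4, which encodes the other endothelial calcium-activated channel IK1, went the same way with 41, 55 and 72. Per kilobase of canonical transcript Kcnn3 took 45.4% ± 6.6 of the calcium-activated list, Kcnn4 26.8% ± 2.6, Kcnn2 18.2% ± 7.6 and Kcnn1 9.35% ± 2.39. The order below Kcnn3 rests on this length. With joined exons Kcnn3 had 13.5 per kilobase, Kcnn1 8.36, Kcnn4 7.10 and Kcnn2 2.80. Kcnma1, the large-conductance channel typical of smooth muscle, had 1, 3 and 5 normalized counts. The summed counts of the mural and of the fibroblast markers were lowest in mouse 1 and highest in mouse 3, as Kcnn3 was, and the sum of 6 leukocyte markers, 446, 671 and 681, went the same way. The mural gene Rgs5, with 542, 615 and 505, did not, and neither did Kcnj8, with 138, 85 and 119. The part of such RNA in Kcnn3 was not tested. Per kilobase of canonical transcript the levels of Kcnj2 and Kcnn3 did not differ beyond the spread between mice (log2 ratio 0.09 ± 0.48, SD over 3 mice; exact sign-flip permutation test, two-sided p = 1.0), and the sign turned when mouse 1 or mouse 2 was left out, to -0.089 and -0.013. With other lengths Kcnj2 was the higher in each mouse, with a log2 ratio of 1.94 with joined exons, 1.78 with coding length and 1.00 without division by length (two-sided p = 0.25 for each in the same exact test).

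**Figure D3:**
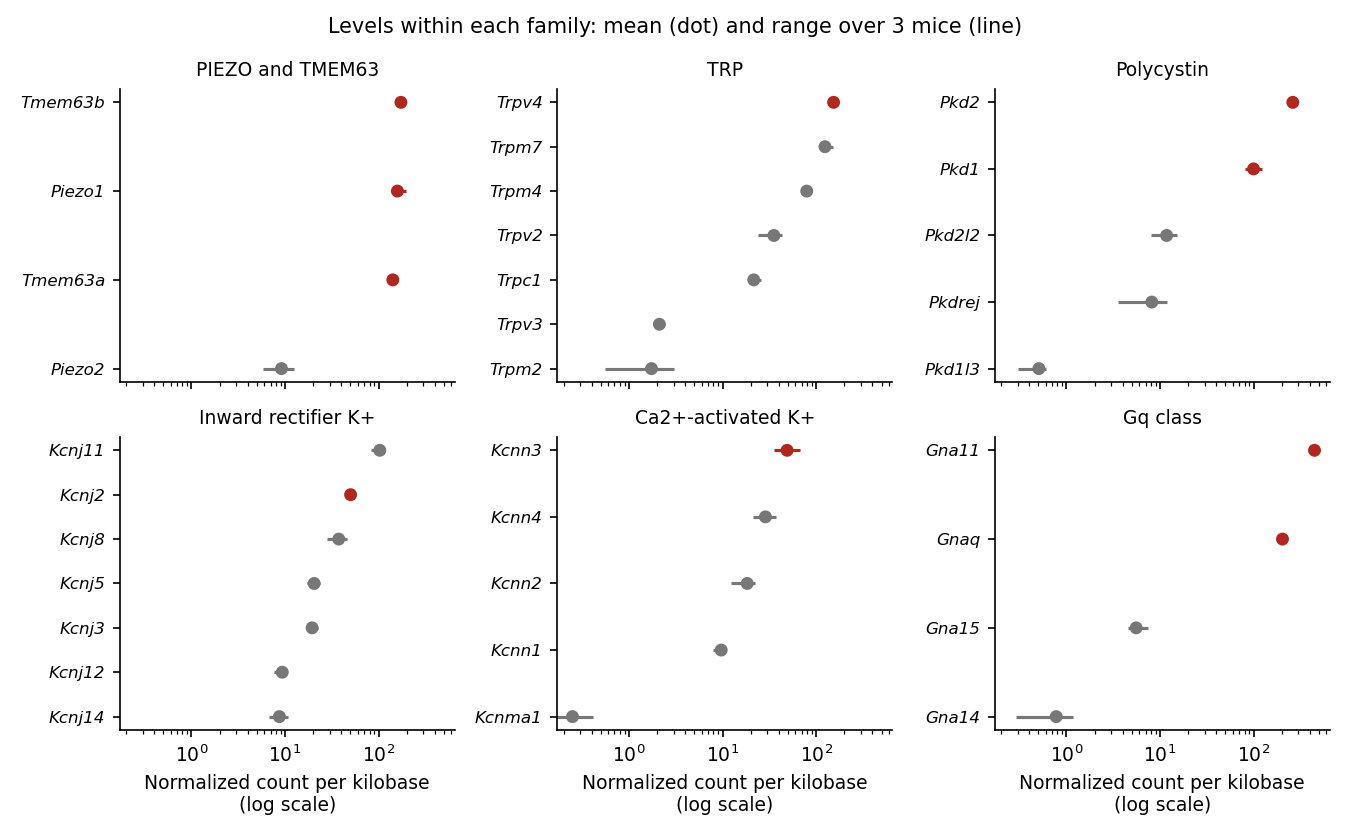
Levels within 6 gene families, as normalized counts per kilobase of canonical transcript (log scale). Dots are means and lines the range over 3 mice, red for the 10 genes and grey for the relatives shown. Piezo1, Trpv4, Pkd2, Kcnn3 and Gna11 lead or nearly lead their families, and Kcnj2, at 50.2, lies below Kcnj11 at 102.9.

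K2P potassium channels, some of which also open under membrane stretch, differed widely in level. Kcnk6 had 132.2 ± 10.3 per kilobase, Kcnk3 70.0 ± 17.0, Kcnk5 16.8 ± 5.6 and Kcnk2 5.69 ± 0.84, while Kcnk1, Kcnk4 and Kcnk10 were not listed. Among proteins that act on force-gated channels, Mdfic, an auxiliary subunit of PIEZO channels, had 434.5 ± 27.3 per kilobase of canonical transcript, above Piezo1 itself. The size of this gap rests on the length. With joined exons Mdfic had 198.9 and Piezo1 131.4 per kilobase. Without division by length Mdfic had 1634, 1448 and 1500, and Piezo1 was higher in mouse 3 with 1594. Per kilobase of canonical transcript Tmem120a had 146.6 ± 1.5 and Mdfi 86.5 ± 31.8, and Stoml3 was not listed. Of 5 volume-regulated anion channel subunits, Lrrc8c was highest with 311.9 ± 12.6, followed by Lrrc8a with 136.9 ± 11 and Lrrc8d with 132.1 ± 12.5, and Lrrc8e was not listed.

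The ratio of the Gq and G11 alpha subunits was the steadiest of the 5 pairs compared. Gnaq (ENSMUSG00000024639, chr19:16110195-16364827, plus strand) had 1393, 1313 and 1487 normalized counts, a mean of 1398 ± 87.1 (SD, n = 3). Gna11 (ENSMUSG00000034781, chr10:81364558-81381024, minus strand) had 1550, 1446 and 1639, a mean of 1545 ± 96.6. Both were lowest in mouse 2 and highest in mouse 3. Per kilobase Gna11 was 2.20-fold above Gnaq in each mouse (the log2 ratio of Gnaq to Gna11 was -1.14 ± 0.0083, SD over 3 mice; exact sign-flip permutation test, two-sided p = 0.25, adjusted 0.417). An SD of 0.0532 would arise from counting alone, so the observed SD over 3 mice was below that of counting. Whether the ratio is steadier than counting allows was not tested. Without division by length the log2 ratio was -0.14. The direction was also kept with joined exons (-0.85) and with coding length (-0.14), which is equal for both genes. The size of the difference thus rests on the length chosen.

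The other Gq class genes hardly contributed. Gna15 had 20, 19 and 31 normalized counts and Gna14 had 4, 3 and 1, so that Gna11 and Gnaq took 68.1% ± 0.2 and 30.9% ± 0.1 of the summed level per kilobase of canonical transcript (SD, n = 3). Per kilobase of coding length Gna11 had 1434.5 and Gnaq 1297.7, so the split between them rests on the length chosen. All 12 alpha subunits searched were listed. With joined exons Gnai2, the inhibitory subunit gene, was highest with 436.2 per kilobase, and the stimulatory Gnas had 159.7, below Gna11 with 340.3 and Gnaq with 188.7. Per kilobase of canonical transcript Gnai2 was highest with 834.4 ± 40.6, then Gnas with 509.8 ± 9.0, followed by Gna11. The place of Gnas thus rests on the length chosen. On the same scale Gna12 had 445.8 ± 11.04, nearly equal to Gna11, and Gna13 had 218.0 ± 4.4, close to Gnaq.

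Downstream and upstream partners of Gq and G11 were present too. Of 14 effectors, 12 had at least 10 normalized counts in every mouse, and the highest were Prkch, a protein kinase C, with 441.8 ± 23.2 per kilobase, and the phospholipases Plcb4 with 296.7 ± 28.6 and Plcb3 with 219.8 ± 24.5. Plcb2, the form typical of blood cells, had 9, 26 and 17 normalized counts. All 6 regulators were detected, led by Rgs3, which accelerates the GTPase of Gq, with 501.4 ± 49.2, the receptor kinase gene Grk2 with 424.0 ± 6.6 and the chaperone gene Ric8a with 240.8 ± 21.4. Among 16 receptors that couple to Gq, 13 were detected. The thrombin receptor F2r had 338.7 ± 17.4 per kilobase, the endothelin B receptor Ednrb 242.2 ± 26.9 and F2rl1 128.8 ± 30.2. The ATP receptor P2ry2 had 701, 675 and 726 normalized counts. Bdkrb1 was not listed. These counts of detected genes state presence only, since the median of all listed genes by mean was 237, far above the limit of 10.

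Genes known to respond to flow were all above the median of all genes per kilobase, 73.0. All 5 on the list had at least 10 normalized counts in every mouse, with Klf2 at 736.4 ± 37.3 per kilobase, Thbd at 557.9 ± 36.4 and Klf4 at 545.8 ± 19.7. The junctional mechanosensors Pecam1, Cdh5 and Kdr had 746.5 ± 24.96, 712.8 ± 15.2 and 554.2 ± 13.5. Each of these 6 genes was therefore above Gna11, the highest of the 10, on the same scale. The other genes of both lists were below Gna11 on this scale. They were Nos3 with 410.4 ± 23.8, Edn1 with 216.1 ± 14.7, Plxnd1 with 398.0 ± 46.3 and Flt4 with 261.6 ± 40.1. Part of this order rests on the length chosen. With joined exons Gna11 had 340.3 per kilobase, above Thbd with 284.0 and Pecam1 with 274.5. Plxnd1 was then above Gna11 with 362.4, and Nos3 nearly equal with 340.7. Klf2, Klf4, Cdh5 and Kdr stayed above Gna11, and Edn1 and Flt4 below it. On the list for ATP release and its receptors, the connexin genes Gja4, Gja1 and Gja5 were highest with 314.4 ± 28.3, 312.7 ± 13.6 and 280.6 ± 11.3.

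The spread between mice divided the 10 genes. Of the 9 with a mean of at least 200, Pkd1 alone had a coefficient of variation over 20%, with 21.6%, and Piezo1 followed just below with 19.6%. Over all 9358 genes with such a mean, 749 passed this limit (8.0%), so 1 of 9 is near the share of all genes. Kcnn3, with a mean under 200, also exceeded 20%. The other 7 genes varied by 1.60% to 8.50%, around the median of all genes, 7.37%.

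**Figure D4:**
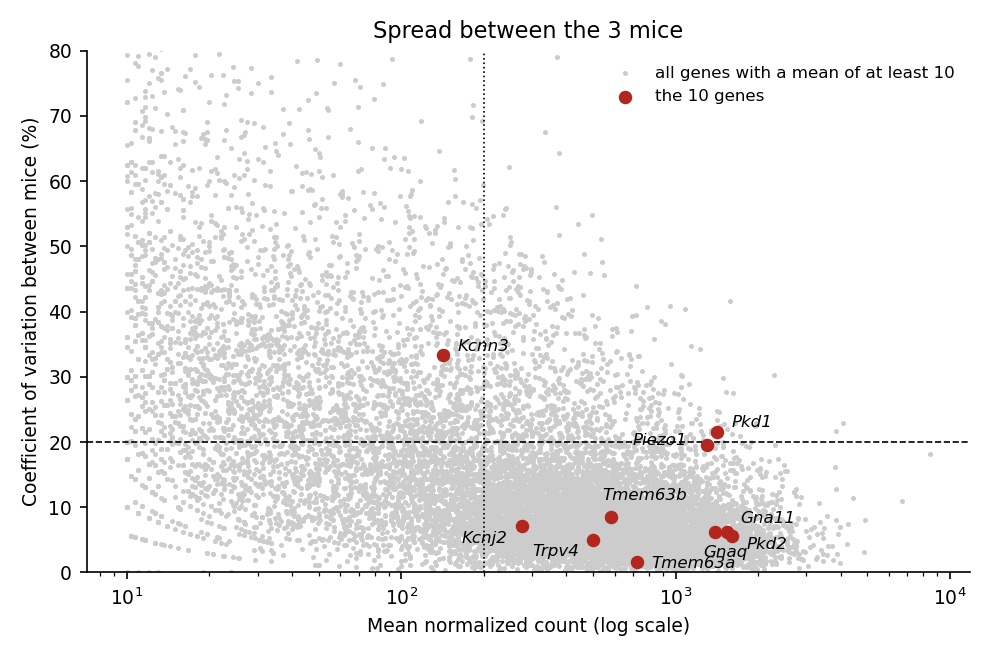
Coefficient of variation between the 3 mice (percent) against mean normalized count (log scale) for all genes with a mean of at least 10 (grey; values above 80% are outside the axis) and for the 10 genes (red). The dashed line marks 20% and the dotted line a mean of 200. Kcnn3, Pkd1 and Piezo1 lie at 33.4%, 21.6% and 19.6%, and the other 7 genes lie at 8.50% or less.

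Piezo1 and Pkd1 have the longest canonical transcripts of the 10 genes, with 8223 and 14164 bases, and the libraries differed by the length of this transcript. By joined exons Pkd2 (16770 bases), Tmem63b (12436) and Kcnn3 (10462) are longer than Piezo1 (9939). Of these, Pkd2 and Tmem63b were lowest in mouse 2. Genes with a mean of at least 200 were placed in 10 bins by length. In the bin of the longest transcripts, 936 genes from 7433 bases, the median log2 deviation from the mean of the 3 mice was -0.08 in mouse 1, -0.02 in mouse 2 and 0.10 in mouse 3. In the bin of the shortest it was 0.06, 0.04 and -0.09. Piezo1 deviated by -0.22, -0.08 and 0.30, and Pkd1 by -0.30, -0.03 and 0.32, in the same direction as the other long transcripts and further. After each library was centred on genes of like length, a setting added once the values were known, the coefficient of variation fell to 12.8% for Piezo1 and to 15.1% for Pkd1, so that none of the 9 genes passed 20%, against 686 of 9356 genes in all (7.33%). Centring on genes of like GC content left Piezo1 at 19.98% and Pkd1 at 22.4%, with 774 genes in all over the limit (8.27%). Kcnn3 has a short canonical transcript of 2895 bases and deviated by -0.42, -0.08 and 0.51, against -0.03 in mouse 3 for genes of like length.

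**Figure D5:**
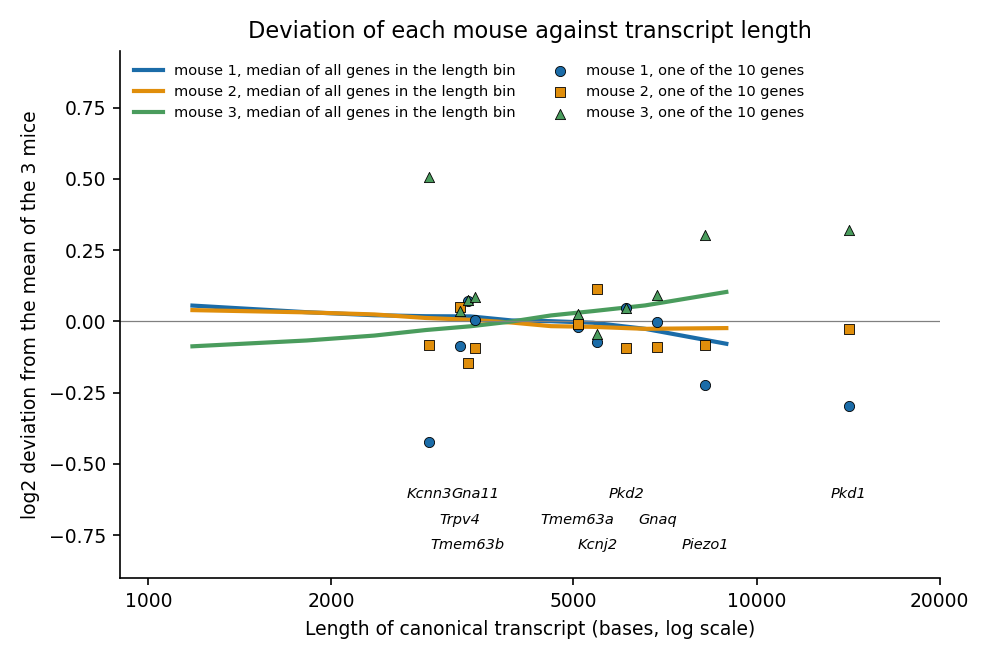
Log2 deviation of each mouse from the mean of the 3 mice against the length of the canonical transcript (bases, log scale). Lines join the medians of all genes in 10 length bins and symbols are the 10 genes, named at the bottom in the order of length. Piezo1 and Pkd1, at the right, deviate as long transcripts do but further, while Kcnn3, at the left, reaches 0.51 in mouse 3 where genes of like length are near 0.

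The genes whose values were most like those of Piezo1 were found among 9355 others with a mean of at least 200, by the largest absolute log2 difference in any of the 3 mice. Among the 3 nearest were Lama5, a basement membrane laminin, with 1160, 1240 and 1505 normalized counts and a largest difference of 0.08, and Nin, the centrosomal protein ninein, with 1065, 1237 and 1476 and a largest difference of 0.11. All 3 libraries belong to 1 group, so this likeness describes level and library differences together.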

How the data were processed

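The authors trimmed reads with Trimmomatic 0.39, aligned them to mm39 (GRCm39) with STAR 2.7.11a, removed duplicates with Picard 3.1.1 as well as multi-mapping, ribosomal and mitochondrial reads, counted reads by strand with featureCounts 2.0.4 and normalized with DESeq2 1.36.0. Removal of duplicates limits each position to about 1 read. The deposited values are a score, namely size-factor-normalized counts rounded to whole numbers, so no count model was used. The labels call the 3 samples biological replicates.

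Levels are means with SD. Lengths came from the GENCODE vM39 annotation of GRCm39 (17475 genes matched), and coordinates from the deposited table. Ratios of 5 pairs were taken within mice and tested by an exact sign-flip permutation test with Benjamini-Hochberg adjustment. Counting error was derived from the estimated worth of 1 read (0.9765, 1.06 and 0.961 normalized counts in mice 1, 2 and 3) and covers counting only. Detection means at least 10 in every mouse. The share of all listed genes that reach this limit is not given here, so counts of detected genes show no enrichment. Windows of 72 bases were searched with BLAST 2.17.0. Named were the 10 genes, listed relatives in their families, the 3 highest per kilobase of each other list, genes not listed, and the 3 genes nearest to Piezo1; a few genes and 1 sequence that this rule names are not reported here. Gna12, Gna13, Plcb2, P2ry2, Ttn, Ryr2, Rgs5, Kcnk2, Nos3, Edn1, Plxnd1, Flt4 and Eif2s3y were named after their values were seen. Members, lists and tests were chosen with earlier results of these data known. Steps were tested on simulated data. Python 3.11.15, numpy 2.4.6, pandas 2.3.3, scipy 1.17.1 and matplotlib 3.10.9 were used.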

Additional observations from a re-analysis of the deposited data

How the results depend on the processing

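Scaling by trimmed means of log ratios or to equal totals changed no direction and no count. The number of the 10 genes among the highest 25% by mean was 6, or 5 with lower genes (mean under 10) left out. The number above the median per kilobase was 8, and 4 by coding length. The log2 ratio of Tmem63a to Tmem63b reversed from -0.29 to 1.16 with joined exons, 0.36 with coding length and 0.31 without division by length. That of Pkd1 to Pkd2 shrank from -1.42 to -0.26 with joined exons and -0.20 without division by length. That of Gnaq to Gna11 shrank from -1.14 to -0.85 with joined exons and to -0.14 with coding length or without division by length. That of Piezo1 to Trpv4 was 0.03, and 0.62 with joined exons and 1.37 without division by length, reversed to -0.18 with coding length and, with mice left out in turn, ranged from -0.10 to 0.10. That of Kcnj2 to Kcnn3 was 0.09, and 1.94 with joined exons, 1.78 with coding length and 1.00 without division by length, and with mice left out in turn it ranged from -0.089 to 0.36, reversing without mouse 1 (-0.089) and without mouse 2 (-0.013). The number of the 10 genes with a coefficient of variation over 20% was 1, and 2 with a mean of at least 100 or of at least 10, both of which add Kcnn3. It was 0 after centring on genes of like length, and between 0 and 2 with a mouse left out. It was 0 without mouse 1, 2 without mouse 2 and 0 without mouse 3. Of 130 genes on the lists, 102 were detected, 85 with at least 50 in every mouse, and 111 were listed at all. No paired analysis was possible because all 3 mice form 1 group. Depth limits Kcnn3 most, with about 104 reads in mouse 1.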
